A study of Mus musculus with 18 samples.

Results

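Interferon-stimulated genes were followed through 5 stages of blood cell development from mouse embryonic stem cells and in mouse embryonic fibroblasts (MEFs) given blood transcription factors. The group is a list of 38 genes chosen by name, and all 38 were found in the table of stages, which holds 20066 genes, and in the table of MEFs, which holds 20268. The 18 RNA-seq samples are of strain 129. Of these, 10 are 2 samples each of ESC, MES, HB, HP and MAC, derived from a single ESC line that carries a GFP reporter in the *Brachyury* (Bry) gene and was kept on MEFs. MES (mesoderm) was sorted as Bry+/Flk1-, HB (hemangioblast) as Bry+/Flk1+, HP (hematopoietic progenitors) as CD41+, and MAC (macrophages) as CD11b+ cells grown from HP. The other 8 are single libraries of E14.5 MEFs at day 12 and day 21, either untreated (uFIB) or given Scl/Lmo2 (SL), Scl/Fli1/Gata2/Lmo2 (SFGL) or Fli1/Gata2/Lmo2 (FGL). Scl is the protein of *Tal1*. The MEFs came from wild-type or from iTal1-2A-GFP mice, which carry rtTA and a TRE-TAL1 cassette that doxycycline switches on, and the labels do not say which library came from which. Vector, doxycycline, mouse genotype and the factors therefore cannot be told apart in a comparison with uFIB.

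Interferons are secreted proteins that cells make on sensing viral nucleic acid. Type I interferons bind the receptor of IFNAR1 and IFNAR2, the kinases JAK1 and TYK2 then phosphorylate STAT proteins, among them STAT2, which join IRF9 in a complex that binds the interferon-stimulated response element (ISRE) in promoters. The genes so induced block viral entry, translation and replication, macrophages express many of them, and pluripotent cells are known for a weak response to interferon with constitutive expression of some members.

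To show what the members share in sequence, promoters from RefSeq (GRCm38.p6; 250 bases before to 50 bases after the start site, 300 in all) were searched on both strands for the ISRE core GAAANNGAAA, with overlapping matches counted. Promoters were matched for 27 of the 38 members, and 19 of these (70.4%) held the core, against 1079 of 27025 genes overall (3.99%). In the bases before the start site alone it was found in 15 of the 27 (55.6%), against 3.46% of all genes. Such a match is a description of the letters and not a binding site. The stretches below, 5′ to 3′ on the gene's strand with the matched blocks in capitals, are from members on which the results turn: genes that were high in MAC and low in SL and SFGL (*Isg15*, *Ifit1*, *Ifit3*, *Oas1a*, *Bst2*) and GTPase genes that were also expressed in MES (*Gbp2*, *Irgm1*).
*Isg15*, chr4:156200860-156200911, minus strand: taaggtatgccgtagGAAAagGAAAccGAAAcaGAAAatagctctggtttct
*Ifit1*, chr19:34640770-34640828, plus strand: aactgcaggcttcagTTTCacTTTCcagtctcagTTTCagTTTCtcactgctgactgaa
*Ifit3*, chr19:34583358-34583431, plus strand: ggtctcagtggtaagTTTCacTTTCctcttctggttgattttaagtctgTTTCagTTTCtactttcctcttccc
*Oas1a*, chr5:120907526-120907560, minus strand: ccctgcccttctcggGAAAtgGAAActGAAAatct
*Bst2*, chr8:71537572-71537617, minus strand: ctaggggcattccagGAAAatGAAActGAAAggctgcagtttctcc
*Gbp2*, chr3:142620589-142620628, plus strand: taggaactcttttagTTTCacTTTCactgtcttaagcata
*Irgm1*, chr11:48871421-48871465, minus strand: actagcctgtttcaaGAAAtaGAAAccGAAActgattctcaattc
The *Isg15* stretch holds 3 overlapping matches, the *Ifit1* and *Ifit3* stretches hold 2 separate matches each, and the *Gbp2* stretch holds 1. The 8 members with a matched promoter but no core in it were *Ifitm1*, *Ifi35*, *Ifi44*, *Ifit2*, *Oasl2*, *Samhd1*, *Trim25* and *Xaf1*.

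Many members lie beside each other in the genome. The authors' table (mm10, which is GRCm38) places the members on 15 chromosomes, and 16 of the 38 have another member within 100 kb. These were *Ifit2*, *Ifit3* and *Ifit1* on chromosome 19, *Ifitm2*, *Ifitm1* and *Ifitm3* on chromosome 7, *Gbp3* and *Gbp2* on chromosome 3, *Parp14* and *Parp9* and also *Mx1* and *Mx2* on chromosome 16, *Oas2* and *Oas3* on chromosome 5, and *Ifi203* and *Ifi205* on chromosome 1. Reads of the stages were 50 bases long and those with more than 1 position were dropped, so that members with near-identical copies can be undercounted. Of the 50-base windows in the longest GENCODE M21 transcript, 57.6% were shared with another gene for *Oas1a* (*Oas1g*, *Oas1b*), 51.2% for *Ifit3* (*Ifit3b*), 48.5% for *Ifitm2* and 30.2% for *Ifi204*, and at most 12.3% for any other member. Levels of these 4 genes are uncertain for that reason.

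Expression is given as FPKM, fragments scaled by transcript length and library size, so that levels of different genes can be compared within a table. The table of stages gives 1 value per stage with the replicates combined, and each MEF condition has 1 library per day. No value has a replicate error and no difference could be tested. A member was counted as higher or lower where log2(FPKM + 1) differed by at least 1, that is 2-fold, with at least 1 FPKM on 1 side, and this scale understates the change of low genes. In bulk samples fewer cells of a type and less RNA per cell cannot be told apart. Of the stage markers, *Pou5f1* was 383 FPKM in ESC and 0.0931 in MAC. Among the genes of the sort, *T* (Brachyury) was highest in MES (142), *Kdr* (Flk1) in HB (77.6) and *Itga2b* (CD41) in HP (62.5). *Csf1r* was highest in MAC (234). Other listed markers did not all follow the labels. *Mixl1* and *Eomes* of the mesoderm list were higher in HB (80.4 and 55.0) than in MES (46.9 and 34.9). *Cdh5*, *Pecam1* and *Tek* of the endothelial list were highest in HP, and the blood markers *Ptprc*, *Coro1a* and *Laptm5* in MAC. In the MEFs *Col1a1* was 285 to 2410 FPKM. Of the delivered factors, *Tal1* read 7.04 FPKM in the library labelled FGL at day 12, against 0.0414 in uFIB, and *Fli1* was 3.35 in the library labelled FGL at day 21, against 3.02 in uFIB. The other labelled factors were above uFIB in FGL on both days. *Gata2* was 21.9 FPKM at day 12 and 35.1 at day 21, against 1.80 and 2.13. *Lmo2* was 36.2 and 66.5, against 0.499 and 2.28. *Fli1* in FGL at day 12 was 8.29, against 3.43 in uFIB. The *Fli1* value of day 21 is not what the label FGL gives, and *Tal1* at day 12 was above uFIB though that label lists no Scl. Factors outside a label read above uFIB in SL too. At day 12, *Fli1* was 46.7 and *Gata2* 68.8 FPKM in SL, against 3.43 and 1.80 in uFIB. The library labelled FGL at day 12 also held the red cell markers *Gata1* (3.69) and *Klf1* (5.19). Transcripts of the cells' own genes and of the delivered factors were not told apart.

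In the stages the members were expressed at low levels from ESC to HP and at high levels in MAC. The median FPKM of the 38 was 0.615 in ESC, 1.86 in MES, 0.407 at the HB stage, 2.24 in HP and 22.7 in MAC, whereas the median of all genes stayed between 0.792 and 1.02. Members with at least 10 FPKM numbered 7, 9, 3, 7 and 29 in the same order. MAC had the highest value of 34 of the 38, and HB the lowest of 21, some of them only by values under 1 FPKM, which rest on few reads; among the 11983 genes with at least 1 FPKM in a stage, 46.8% were highest in MAC and 10.5% were lowest in HB. The members together took 0.0728% of all FPKM in HB and 0.329% in MAC.

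**Figure D1:**
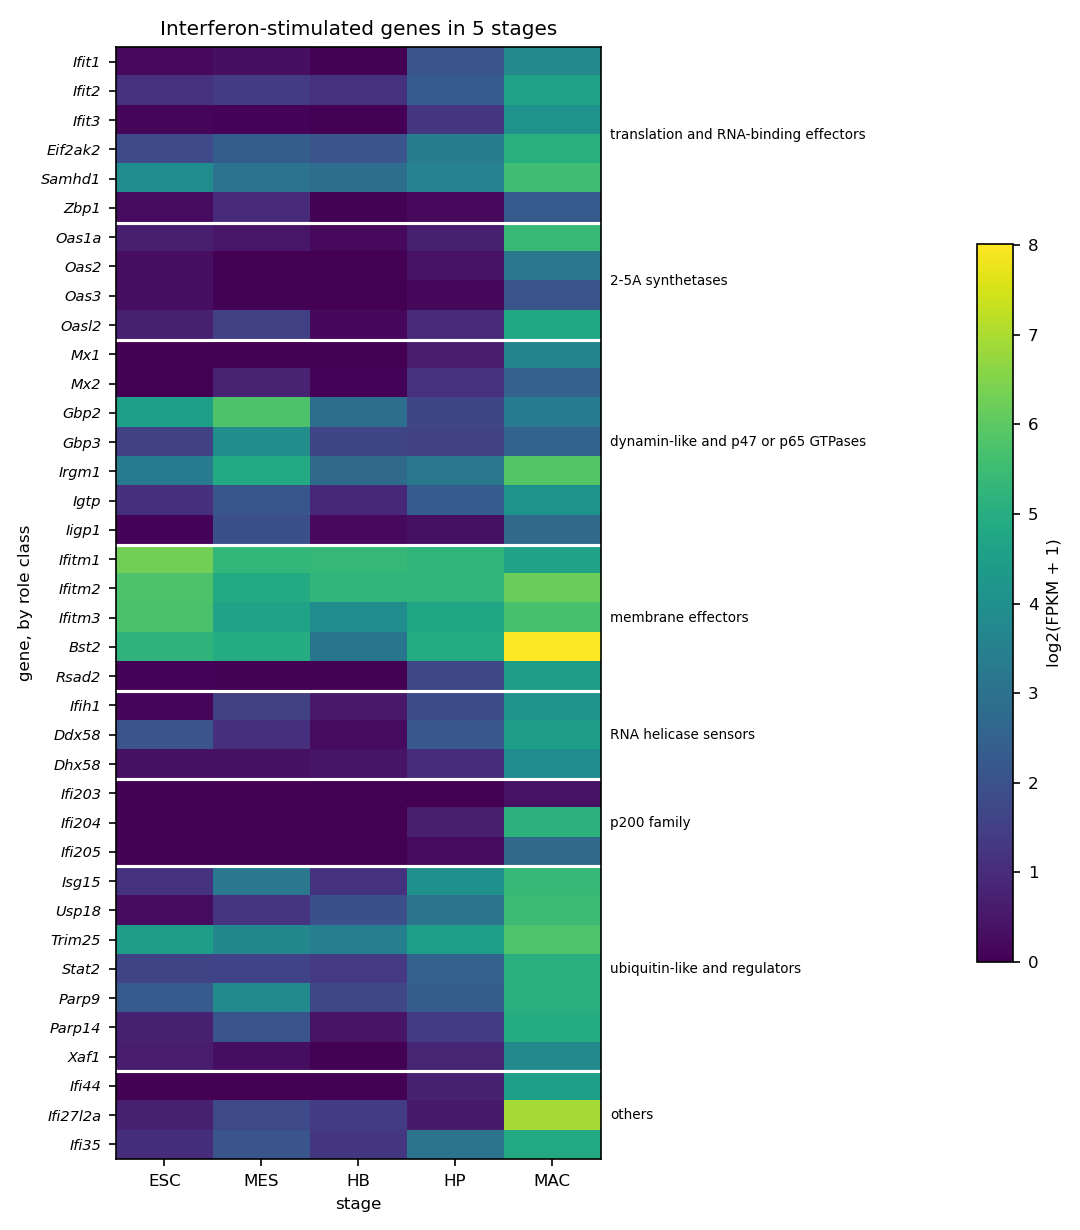
Levels of the 38 members (rows, by role class) in the 5 stages (columns), as log2(FPKM + 1), 1 combined value per stage without replicate error. Most rows are brightest in MAC; *Ifitm1* and *Ifitm3* are brightest in ESC, and *Gbp2* and *Gbp3* in MES.

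From ESC to MES, 11 members were higher and 2 were lower. All genes gave 6.94% higher and 7.30% lower of those tested, and 23 of the 38 members passed the limit of 1 FPKM. The higher members included 5 of the 7 GTPase genes, whose proteins attack the membranes around intracellular pathogens or block viral capsids. *Gbp2*, a guanylate-binding protein, was 21.8 FPKM in ESC, 53.5 in MES, 6.43 at the HB stage, 2.22 in HP and 8.60 in MAC. *Irgm1*, an immunity-related GTPase that regulates autophagy, was 8.99, 28.6, 5.82, 8.26 and 57.7 in the same stages. MES was thus the highest stage for *Gbp2*, while *Irgm1* was highest in MAC with a lesser peak in MES. *Gbp3*, named here because it was the other member highest in MES, was 1.91, 14.4, 2.18, 1.92 and 4.88 FPKM. The remaining higher members were *Igtp*, *Iigp1*, *Isg15*, *Parp9*, *Parp14*, *Ifih1*, *Ifi35* and *Ifi27l2a*. *Ddx58* and *Ifitm3* were lower, and the median difference over all 38 members was -0.01.

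From MES to HB, 0 members were higher and 10 were lower, against 2.53% and 3.30% of all genes tested. The 5 GTPase genes above were among the 10, with *Isg15*, *Oasl2*, *Bst2*, *Parp9* and *Parp14*. *Isg15*, a ubiquitin-like protein that is attached to other proteins, was 1.26 FPKM in ESC, 7.95 in MES, 1.24 at the HB stage, 15.4 in HP and 39.9 in MAC. It thus had a first, lower peak in MES before the values of HP and MAC. *Parp14*, an ADP-ribosyltransferase, was 0.640, 3.26, 0.328, 1.71 and 30.3 FPKM in these stages and *Oasl2*, an OAS-like protein, was 0.616, 1.84, 0.121, 0.988 and 26.5. Both were low before MAC, with a small maximum among the early stages in MES. In all, 17 of the 38 members had a value in MES above those of ESC and HB, 14 of them with at least 1 FPKM in MES; of all genes with at least 1 FPKM in a stage, 16.4% had this order. *Irf1*, the transcription factor of the interferon-gamma response, was 16.0 FPKM in ESC, 46.2 in MES, 12.2 at the HB stage, 3.69 in HP and 28.1 in MAC. It was thus, like these members, higher in MES than in ESC and HB. Its HB value was below that of ESC, whereas some of the members, such as *Gbp3* and *Ifi27l2a*, were higher in HB than in ESC. A part of *Irf1* in the members' values was not tested.

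From HB to HP, a step that spans the hemogenic endothelium, which was not analysed here, 16 members were higher and 1 was lower. All genes tested gave 8.86% higher and 8.80% lower, and the median difference was 0.77 over the 38 members and 1.09 over the 26 that passed the limit. *Usp18*, the protease that removes ISG15 and restrains receptor signaling, was 0.215 FPKM in ESC, 1.29 in MES, 2.90 at the HB stage, 7.43 in HP and 44.3 in MAC. *Ddx58* (RIG-I), a cytoplasmic sensor of viral RNA, was 3.28, 1.12, 0.188, 3.51 and 20.9 in these stages. *Usp18* was higher at each stage than at the one before, whereas *Ddx58* had its lowest value in HB. *Bst2* (tetherin), which holds budding virus at the cell surface, was 36.3, 30.2, 7.74, 29.7 and 257 FPKM, the highest value of any member in any stage. *Rsad2* (viperin), which makes a chain-terminating nucleotide, was 0.0554, 0.0283, 0.00518, 2.26 and 21.5 FPKM. The lower member at this step was *Gbp2*. Macrophage markers were present at low level in HP, where 4 of the 7 in the table reached 1 FPKM and their summed FPKM was 19.5, against 1.62 in HB and 1810 in MAC; *Mrc1* was the lowest of them in HP, at 0.629, and their part in the difference was not tested.

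The step from HP to MAC was the largest for most members. Of the 38, 37 passed the limit, 34 were higher and 0 were lower, and the median difference was 2.35 over all 38 and 2.39 over the 37. This step moved the whole table: 33.4% of all genes tested were higher and 13.9% lower, with a median of 0.45. Bringing HP and MAC to a common upper quartile gave 19.5% higher and 24.7% lower over all genes, with a median of -0.21, and then 28 members were higher and 1, *Ifitm1*, was lower. Relative to the median of all genes as deposited, 36 of the 37 lay above it and 30 lay above it by at least 1. Every one of the 6 translation and RNA-binding effectors, the 4 synthetases of 2-5A, the 7 GTPases, the 3 RNA helicase sensors and the 7 ubiquitin-like proteins and regulators was counted as higher.

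*Ifi27l2a*, a small protein of the ISG12 family, had the widest range, with 0.615 FPKM in ESC, 2.37 in MES, 1.64 at the HB stage, 0.509 in HP and 122 in MAC. *Oas1a*, which makes the 2-5A that activates RNase L, was 0.588, 0.405, 0.153, 0.639 and 41.7 FPKM. Both had under 3 FPKM in every stage before MAC. *Ifi204*, a p200-family protein of nucleic acid sensing, was 0.0143 FPKM in ESC, 0 in MES and HB, 0.577 in HP and 34.7 in MAC, and *Ifi44*, an interferon-induced cytoplasmic protein, was 0.0218, 0, 0, 0.675 and 22.0. *Trim25* and *Samhd1*, of higher basal level, changed by smaller factors than these genes. This was no rule of the list. *Bst2*, at 29.7 FPKM in HP, was 8.65-fold higher in MAC, and *Gbp3*, at 1.92 in HP, was 2.54-fold higher. *Trim25*, the ubiquitin ligase that acts with RIG-I, was 21.3, 12.1, 9.90, 21.9 and 54.4 FPKM. *Samhd1*, which degrades dNTPs, was 13.9, 7.27, 6.40, 10.8 and 46.1. For both, MAC was the highest stage and HB the lowest.

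The *Ifitm* genes, membrane proteins that hinder the fusion of viruses with cells, were the exception and are named for that after their values were seen. *Ifitm1* was 77.5 FPKM in ESC, 38.6 in MES, 39.4 at the HB stage, 37.1 in HP and 23.5 in MAC, and thus highest in ESC and lowest in MAC. Its values sum 2 start sites, of which TSS17993 gave most, 68.8 FPKM in ESC and 18.9 in MAC. *Ifitm2* was 54.2, 29.0, 36.9, 37.0 and 72.1 FPKM and *Ifitm3* was 51.6, 23.7, 13.9, 25.4 and 49.9. These 3 were the members counted neither as higher nor as lower from HP to MAC, and they gave 59.4% of the summed FPKM of the members in ESC. *Ifi203* did not reach 1 FPKM in any stage, with 0.318 FPKM in MAC.

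The remaining members were below 10 FPKM in every stage before MAC, except for *Parp9* with 13.3 in MES. Of the translation and RNA-binding effectors, *Eif2ak2* (PKR) ran from 2.39 FPKM in ESC to 32.4 in MAC and *Ifit2* from 1.22 in HB to 23.7 in MAC. *Ifit1*, which binds viral RNA that lacks the cap methylation of the host, and *Ifit3* were at 0.00765 and 0.00997 FPKM in HB. They were at 3.23 and 1.41 in HP, and 12.7 and 16.0 in MAC. *Stat2*, the STAT of the ISRE complex, was 1.49 to 4.75 FPKM before MAC and 32.3 in MAC. *Zbp1*, *Oas3*, *Mx2* and *Gbp3* were the members counted as higher that stayed below 5 FPKM in MAC, at 3.78, 3.19, 4.77 and 4.88.

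**Figure D2:**
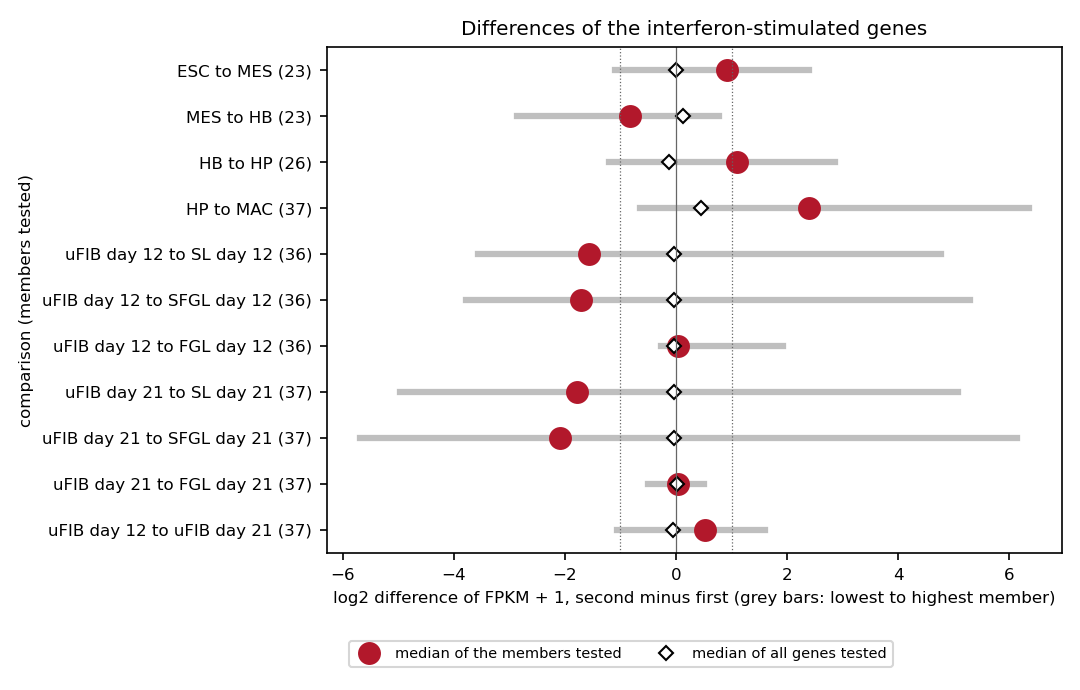
Differences of log2(FPKM + 1) in the 11 comparisons, second column minus first; red circles are medians of the members tested (their number in brackets), open diamonds medians of all genes tested, grey bars run from the lowest to the highest member, and dotted lines mark the 2-fold limit. The members' median was above that of all genes by 1.95 from HP to MAC and differed from it by -2.05 to -1.53 in SL and SFGL, but lay within 0.07 of it in FGL.

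The MEF libraries compared fibroblasts given the factors with untreated ones, and the members divided them into the same groups on both days. Most were high in uFIB and FGL and low in SL and SFGL. Their median was 15.9 FPKM in uFIB and 14.3 in FGL but 3.17 in SL and 2.82 in SFGL on day 12, and 19.3, 17.2, 3.23 and 2.28 at day 21. The median of all genes was 2.45 to 2.76 in the 8 libraries. At day 12, SL had 2 members higher and 25 lower than uFIB, against 14.2% and 13.5% of all genes tested. SFGL had 1 higher and 26 lower, against 14.7% and 17.0%. At day 21, SL had 1 member higher and 30 lower, against 11.9% and 12.3% of all genes tested, and SFGL had 1 higher and 29 lower, against 13.9% and 15.9%. Members past the limit of 1 FPKM numbered 36 at day 12 and 37 at day 21. Over all 38 the median difference was -1.51 for SL and -1.52 for SFGL at day 12, and -1.69 and -2.02 at day 21. The comparisons of a day share their uFIB library. The days do not. In SL, the 25 members lower at day 12 were all among the 30 lower at day 21, 83.3% of those. In SFGL, the 26 of day 12 were all among the 29 of day 21, 89.7% of those. This overlap was not computed for all genes, so it is not read as a trait of the members.

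In FGL the counts were near 0. At day 12, 2 members were higher than uFIB (*Rsad2* and *Ifitm1*) and 0 lower, against 2.96% and 0.302% of all genes tested, and at day 21, 0 were higher and 0 lower, against 0.479% and 0.376%. The 37 members tested at day 21 lay between -0.51 and 0.50 of uFIB on the log2 scale. The red cell markers *Gata1* and *Klf1* summed to 8.88 FPKM in FGL at day 12 and to 0.0700 at day 21.

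**Figure D3:**
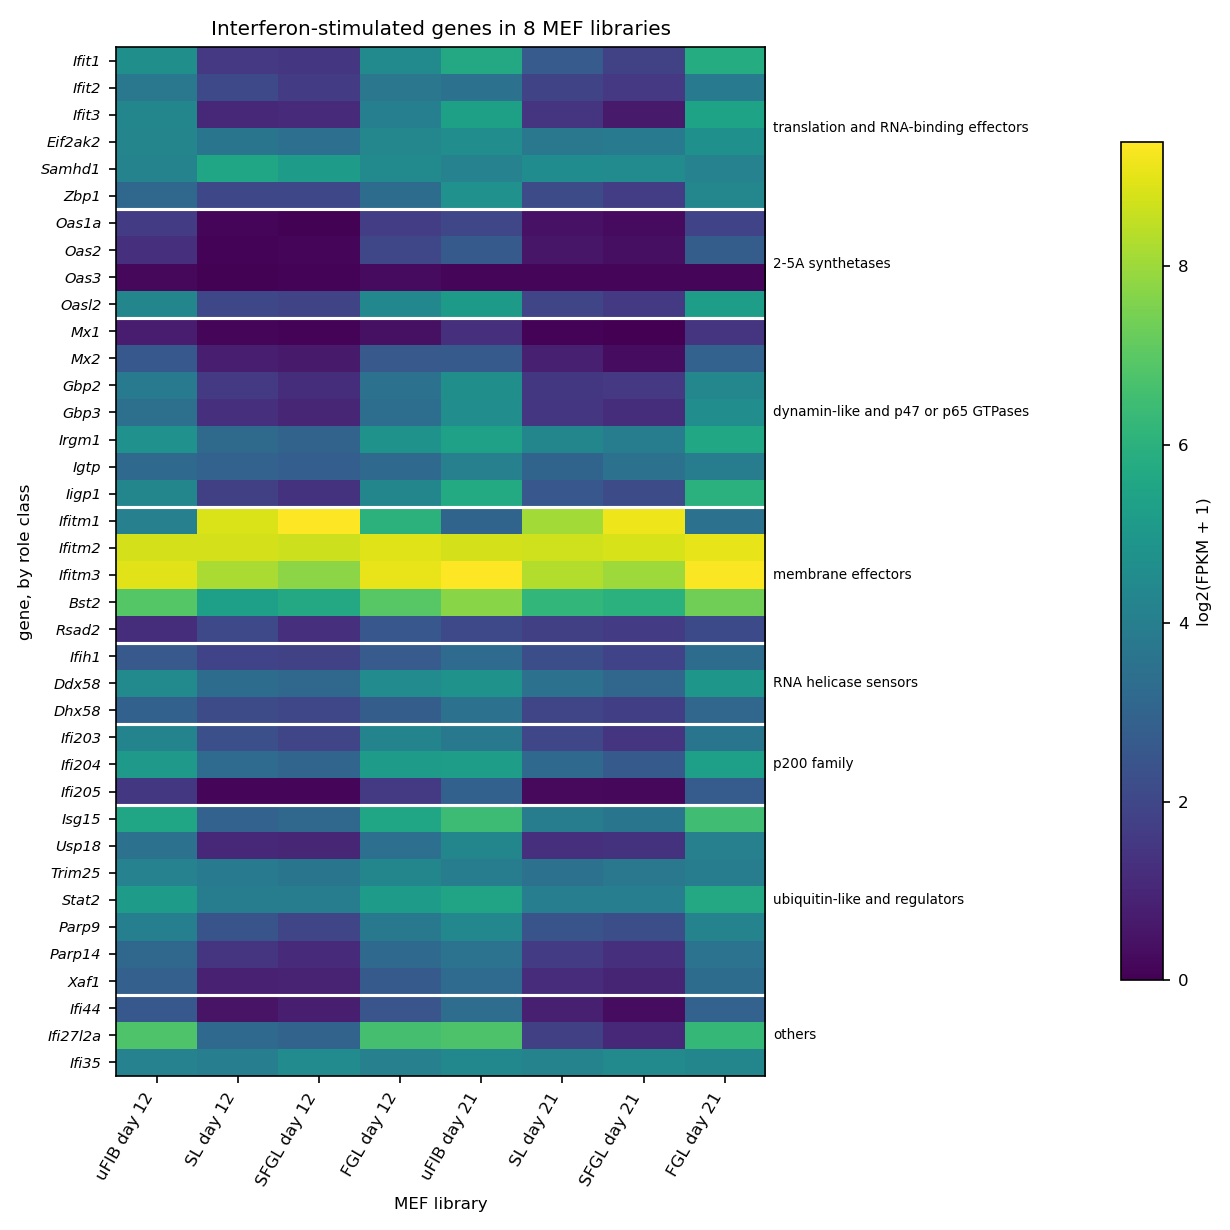
Levels of the 38 members (rows, by role class) in the 8 MEF libraries (columns), as log2(FPKM + 1), 1 library per condition and day. SL and SFGL are darker than uFIB and FGL on both days in most rows, while *Ifitm1* is brighter there and *Ifitm2* and *Ifi35* hardly differ.

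Of the translation and RNA-binding effectors, *Ifit1* was 24.4 FPKM in uFIB and 21.7 in FGL but 1.92 in SL and 1.80 in SFGL on day 12, and 50.4, 54.7, 5.43 and 2.63 at day 21. In SL it was 12.7-fold lower than uFIB at day 12 and 9.27-fold lower at day 21. *Ifit3* was 18.8, 15.6, 1.07 and 1.21 FPKM at day 12 and 39.5, 42.8, 1.76 and 0.589 at day 21. *Zbp1*, a sensor of Z-form nucleic acid that triggers cell death, was 7.71, 9.02, 3.10 and 3.14 and then 25.6, 19.3, 3.49 and 2.24. For these 3 genes no SL or SFGL library reached the level of any uFIB or FGL library. *Samhd1*, outside the rule for named genes and chosen after its values were seen, went the other way, with 17.3, 20.9, 44.3 and 35.5 FPKM at day 12 and 17.1, 16.9, 22.7 and 22.1 at day 21.

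Of the synthetases, *Oasl2* was 18.7 FPKM in uFIB and 19.6 in FGL but 3.05 in SL and 2.76 in SFGL on day 12, and 33.7, 37.2, 2.85 and 2.04 at day 21. *Oas1a* and *Oas2* were lower as well, from levels of 1.46 to 5.32 FPKM in uFIB, and *Oas3* stayed under 0.2 FPKM in all 8 libraries. Of the GTPases, *Iigp1*, which acts on pathogen vacuoles, was 18.6, 18.9, 2.40 and 1.58 FPKM at day 12 and 52.2, 62.1, 4.83 and 3.58 at day 21. *Gbp2* was 13.1, 10.7, 2.05 and 1.32 and then 24.7, 19.4, 1.88 and 1.97, and *Gbp3* was 9.93, 9.54, 1.42 and 1.01 and then 23.6, 23.0, 1.77 and 1.36. The groups of libraries again did not overlap for these genes. *Igtp* was the GTPase gene with the smallest difference at day 12 among those above 1 FPKM, from 8.32 FPKM in uFIB to 6.78 in SL at day 12.

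The membrane effectors were split. *Ifitm1* was 16.1 FPKM in uFIB and 64.0 in FGL but 465 in SL and 669 in SFGL on day 12, and 7.17, 10.5, 273 and 573 at day 21. In SL it was 28.9-fold higher than in uFIB at day 12, the largest difference of any member in SL on the log2(FPKM + 1) scale. *Ifitm2*, its neighbour on chromosome 7, was between 408 and 527 FPKM in all 8 libraries. *Ifitm3* was 501, 534, 295 and 217 FPKM at day 12 and 656, 652, 317 and 256 at day 21, lower in SL and SFGL by less than most members. Adjacent genes of this cluster thus had higher, similar and lower values in the same libraries. These 3 genes made up 84.1% of the FPKM of all members in SL at day 12, so that sums over the list follow them. *Bst2* ran from 38.5 to 72.8 FPKM in SL and SFGL and from 121 to 208 in uFIB and FGL, and *Rsad2* overlapped between the groups at 1.36 to 4.87 FPKM.

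Of the sensors, *Ddx58* was 21.1 FPKM in uFIB and 22.0 in FGL but 8.97 in SL and 7.80 in SFGL on day 12, and 26.7, 30.5, 10.2 and 7.60 at day 21. Its differences from uFIB were among the smaller ones, 2.36-fold in SL at day 12. *Ifi204* was 33.0, 34.3, 8.82 and 7.41 FPKM and then 37.0, 37.9, 8.26 and 5.39. Both other p200 genes, *Ifi203* and *Ifi205*, were also lower in each of these libraries, with uFIB levels of 1.90 to 17.7 FPKM. Of the regulators, *Isg15* was 45.3, 45.3, 6.68 and 7.98 FPKM at day 12 and 86.3, 89.8, 14.3 and 11.7 at day 21, and *Usp18*, which acts on the conjugates of ISG15, was 10.6, 9.78, 1.14 and 1.01 and then 18.9, 16.1, 1.49 and 1.57. The modifier and its protease were thus low together in SL and SFGL. *Stat2* was 14.7 to 15.3 FPKM in SL and SFGL and 34.8 to 50.2 elsewhere.

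Of the members lower in SL and SFGL, *Ifi27l2a* had the widest range, with 110 FPKM in uFIB and 97.0 in FGL but 8.35 in SL and 6.98 in SFGL on day 12, and 108, 75.1, 2.47 and 1.10 at day 21. In SFGL at day 21 it was 97.4-fold lower than in uFIB. *Ifi44* was 5.03, 4.63, 0.426 and 0.711 FPKM and then 9.33, 6.71, 0.765 and 0.234. *Ifi35*, which forms complexes with NMI, was 15.3 to 21.9 FPKM in all 8 libraries and did not follow the others.

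After the values were seen, the 4 libraries labelled with Scl (SL and SFGL) were set against the 4 without it. Of 37 members with at least 1 FPKM in a library, 31 were lower in every library with Scl than in any without, 2 were higher in every one (*Ifitm1* and *Samhd1*), and *Rsad2*, *Ifi35*, *Ifitm2* and *Igtp* overlapped. Of all genes, 31.0% were lower throughout and 29.1% higher throughout, so that 83.8% of the members, against 31.0% of all genes, stood lower. Leaving out the library labelled FGL at day 12, which held red cell markers, gave the same 31 and 2 members, against 34.0% and 30.7% of all genes. The promoters of the 2 higher genes held no ISRE core, but neither did those of *Ifit2*, *Ifi44*, *Oasl2*, *Trim25* and *Xaf1*, which were lower. The 19 members with a core had a median difference of -1.40 between SL and uFIB at day 12 and -1.47 at day 21, and the 8 without it -1.01 and -1.0, with ranges that overlapped widely. From HP to MAC the order was the other way round, with a median of 1.91 for those with a core and 2.16 for those without. The 11 members without a matched promoter are in neither group. Their medians were -1.73 in SL at day 12, -2.04 in SL at day 21 and 2.78 from HP to MAC.

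**Figure D4:**
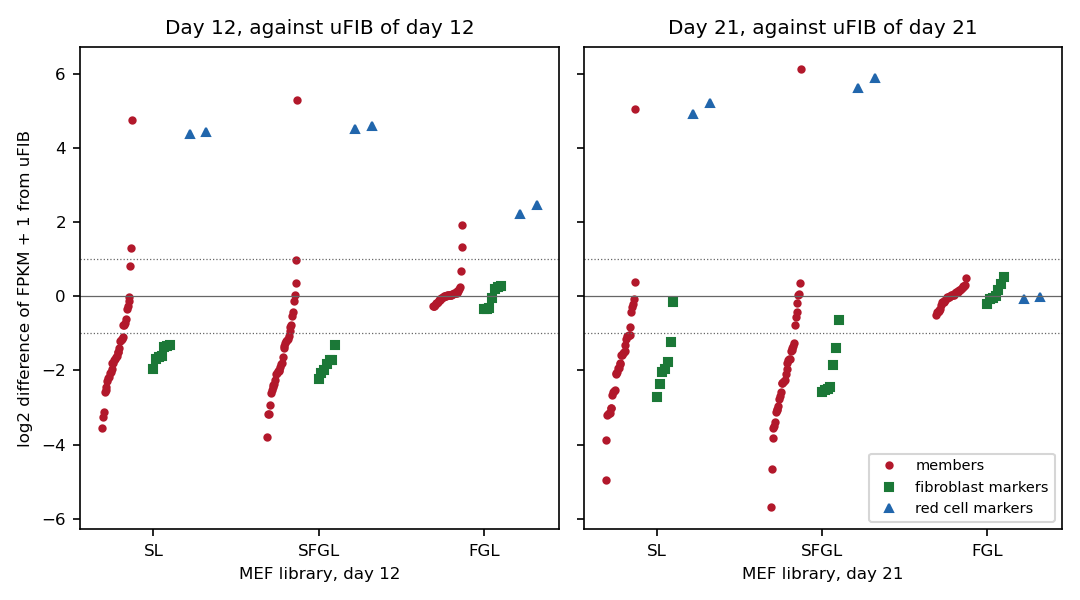
Differences of log2(FPKM + 1) from uFIB of the same day in SL, SFGL and FGL, for the members with at least 1 FPKM, 7 fibroblast markers and 2 red cell markers; each point is a gene, and dotted lines mark the 2-fold limit. Most members and all 7 fibroblast markers lie below 0 in SL and SFGL, and red cell markers lie above it.

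Markers of other cells moved with these values. The 7 fibroblast markers *Col1a1*, *Col1a2*, *Col3a1*, *Thy1*, *Pdgfra*, *Dcn* and *Lum* summed to 7250 FPKM in uFIB and 6190 in FGL but 2520 in SL and 2050 in SFGL on day 12, and to 5650, 5720, 1580 and 1260 at day 21. Their median difference from uFIB was -1.62 in SL and -1.82 in SFGL on day 12, and -1.96 and -2.45 at day 21, which was close to that of the members. Members that lay below the lowest fibroblast marker numbered 11 of 36 in SL and 10 of 36 in SFGL at day 12, and 8 and 12 of 37 at day 21, but also 7 of 37 in FGL at day 21, where no member was counted as lower and the markers lay between -0.21 and 0.52. *Ifit1*, *Ifit3*, *Oasl2*, *Usp18*, *Ifi27l2a*, *Gbp2*, *Gbp3* and *Iigp1* were among them in SL and SFGL on both days. The share of all genes below the lowest marker was not computed, so these counts have no baseline. The red cell markers summed to 43.5 and 48.3 FPKM in SL and SFGL at day 12 and 70.6 and 115 at day 21, against 0.123 and 0.137 in uFIB. The 4 pan-blood markers *Ptprc*, *Coro1a*, *Laptm5* and *Itga2b* summed to 442 and 579 FPKM in SL and SFGL at day 12. At day 21 their sums were 212 and 378. In uFIB they were 2.05 at day 12 and 3.16 at day 21, and in FGL 48.0 and 1.45. The 8 macrophage markers summed to 105 and 76.8 FPKM at day 12 and 45.6 and 54.6 at day 21, against 10.5 and 9.91 in uFIB, with *Fcgr1* at 0 to 0.146. The part of these cells in the members' differences was not tested. Relative depth, read from the steps of low values, was 0.587 to 1.56 times that of uFIB at day 12 and did not follow the groups.

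Untreated fibroblasts also differed between the days. At day 21 uFIB had 7 members higher than at day 12 and 1 lower, against 1.87% and 1.28% of all genes tested, and the median difference was 0.47 over the 38 members. The higher ones were *Ifit1*, *Ifit3*, *Oas2*, *Ifi205*, *Gbp3*, *Iigp1* and *Zbp1*, and *Ifitm1* was lower. *Oas2* had the largest ratio, 3.64-fold from a low level of 1.46 FPKM, and *Zbp1* the largest difference on the log2(FPKM + 1) scale, at 3.32-fold. Of the 37 members tested, 30 had a positive difference and 33 lay above the median of all genes tested, which was -0.05. With 1 library per day, the day and the library cannot be told apart.

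Genes of the pathway outside the members gave the setting. Of 42 listed, 38 were in the table of stages and 39 in that of the MEFs. The listed ligand genes found in the tables were at or near 0. *Ifnb1* was at most 0.0803 FPKM in any stage and 0.0621 in any MEF library. *Ifng*, *Ifna1*, *Ifna2*, *Ifna4* and *Ifna5* did not exceed 0.162, and other *Ifna* genes were not looked up. The receptor genes were expressed in every stage and library. *Ifnar1* was 6.79 FPKM in ESC, 8.60 in MES, 10.6 at the HB stage, 11.1 in HP and 43.8 in MAC, and *Ifnar2* was 1.93, 2.44, 4.87, 9.03 and 67.8. Both were higher at each stage than at the one before, also in HB, where many members had their lowest value. In the MEFs *Ifnar2* was 43.5 to 58.5 FPKM in all 8 libraries, while *Ifnar1* was 9.62 to 12.4 in SL and SFGL and 16.7 to 18.9 in uFIB and FGL.

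*Irf9*, the DNA-binding partner of STAT2, was 1.58 to 5.42 FPKM before MAC and 31.2 in MAC, and was 8.77 to 10.8 in SL and SFGL and 23.5 to 25.7 in uFIB and FGL. *Irf7*, which amplifies type I interferon, was at most 1.36 FPKM before MAC and 38.1 in MAC, and was 2.98 to 4.13 in SL and SFGL and 12.5 to 26.8 in uFIB and FGL. Both factors were highest in MAC and lower in SL and SFGL, but *Irf9* was lower in MES (1.93 FPKM) than in ESC (2.75). *Irf1* was 12.3 and 14.9 FPKM in SFGL and SL and 17.0 in uFIB at day 12, and 8.78 and 9.12 against 18.0 at day 21, short of 2-fold on the log2(FPKM + 1) scale.

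Of the pathway genes tested, 23 of 30 (76.7%, against 33.4% of all genes) were higher and 0 lower (against 13.9%) from HP to MAC. From HB to HP, 10 of 26 (38.5%, against 8.86%) were higher and 2, *Irf1* and *Socs1*, were lower (7.69%, against 8.80%). From ESC to MES, 3 of 18 were higher and 3 lower (16.7% each, against 6.94% and 7.30%). From MES to HB, 0 were higher and 1, *Irf1*, was lower (0% and 5.56%, against 2.53% and 3.30%). In the MEFs, at day 12, 5 of 28 were higher and 3 lower in SL and 4 were higher and 3 lower in SFGL, and at day 21, 1 was higher and 3 lower in SL and 4 were higher and 3 lower in SFGL. These were 3.57% to 17.9% higher and 10.7% lower, against 11.9% to 14.7% and 12.3% to 17.0% of all genes. FGL had 1 higher at day 12 (3.70%, against 2.96% of all genes) and 0 at day 21 (against 0.479%). It had 0 lower on either day, against 0.302% and 0.376%. At day 21 uFIB had 1 higher (3.70%, against 1.87%) and 0 lower (against 1.28%) than at day 12. The lower ones in SL and SFGL were *Irf7*, *Irf9* and *Tlr3*, the same 3 genes in each of these libraries. The higher ones included *Ptpn6* (SHP-1), a phosphatase expressed in blood cells, which was 0.438 FPKM in uFIB and 90.7 in SL at day 12. *Socs1*, which inhibits the receptor kinases, was 3.24 and 17.1 FPKM in the same libraries. At day 21 it was 5.80 FPKM in uFIB and 9.37 in SL, short of the 2-fold limit. In SFGL it was 18.8 FPKM at day 12 and 16.6 at day 21, past the limit on both days. *Tlr3*, *Ptpn6* and *Socs1* are outside the rule for named genes and were chosen after their values were seen.

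**Figure D5:**
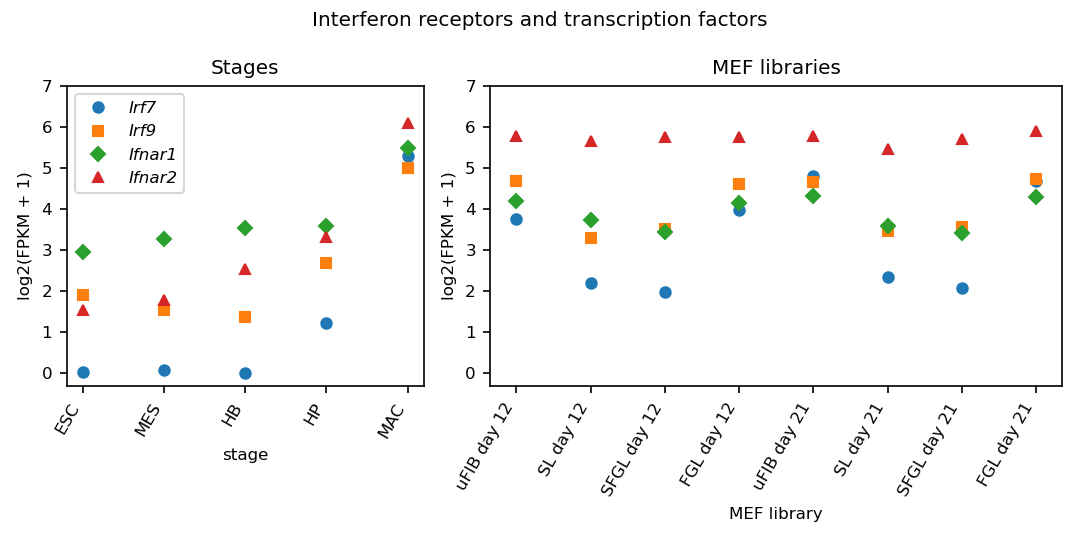
Levels of *Irf7*, *Irf9*, *Ifnar1* and *Ifnar2* as log2(FPKM + 1) in the 5 stages (left) and the 8 MEF libraries (right), 1 value per column without replicate error. All 4 are highest in MAC among the stages; in SL and SFGL *Irf7* and *Irf9* lie below uFIB and FGL, while *Ifnar2* stays level.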

How the data were processed

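RNA-seq of 10 samples of ESC-derived stages and 8 MEF libraries was used as the authors deposited it, in FPKM. According to the methods, the reads of the stages were aligned to mm10 with SHRiMP, reads with a single position were kept, duplicates were removed with Picard and FPKM were calculated with Cufflinks for each TSS with both replicates combined. The submitters' processing notes also name Bowtie and HOMER for ESC, and TopHat and Cufflinks for the MEFs; versions are not given in the sources used here. FPKM hide the number of reads, so that no counting interval and no count test was possible, and the absence of replicate values excluded tests. The tables were normalized separately and levels were compared within each. 1 further column of the stage table, HE, was not used. FPKM of TSSs and of repeated names were summed per gene.

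Members, role classes, marker lists and pathway lists were chosen with earlier results of these data known. Members with a value in every column are the 12 with the largest range of log2(FPKM + 1) in that table and the highest of each of the 8 role classes; *Irf9*, *Irf7*, *Irf1*, *Ifnb1*, *Ifnar1* and *Ifnar2* were given from the pathway. A pathway gene and a red cell marker are not reported here and were left out of the lists. The count of calls and the relative depth (from values under 0.3 FPKM; 15.0% to 19.2% of such genes lay at the step of 1 read) were tested on simulated data with seed 1. Alternatives were pseudocounts of 0.1 and 0.001, upper-quartile scaling, no limit or a limit of 5 FPKM, the highest TSS, and the mean of both uFIB libraries. Starts in the authors' table count from 0, and 1 was added. Python 3.11.15, NumPy 2.4.6, pandas 2.3.3 and matplotlib 3.10.9 were used.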

Additional observations from a re-analysis of the deposited data

How the results depend on the processing

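No paired analysis was possible because the stage table combines the replicates and each MEF condition has 1 library per day, and leaving out a replicate could not be run for the same reason. Of the 133 recomputed counts, 118 stayed within 1.5 times the count reported and 1 difference of a named member changed sign, that of *Rsad2* in SL at day 21, from -0.28 to 0.07 with the mean of both uFIB libraries as reference. With a pseudocount of 0.1 or of 0.001, 1 member in place of 0 was higher from MES to HB, against 3.89% and 4.05% of all genes. From HB to HP, 2 in place of 1 were lower, against 12.3% and 12.8%. In SFGL at day 12, 2 in place of 1 were higher, against 16.7% and 16.9%. After scaling to the same upper quartile, 1 member was lower from HP to MAC, against 24.7% of all genes. In uFIB at day 21, 0 were then lower than at day 12, against 1.04%. With a limit of 5 FPKM fewer members were left to count, 11 or 12 at the first 3 steps. From ESC to MES, 5 were higher and 1 lower, against 8.14% and 7.92% of all genes. The members' median there was -0.25, in place of 0.91 with the limit of 1 FPKM. From MES to HB 6 were lower (against 2.84%) and from HB to HP 6 were higher (against 7.51%). In FGL at day 12, 1 was higher (against 1.90%). With the mean of both uFIB libraries as reference, 2 members were higher in SFGL and 1 in FGL at day 12. Of all genes tested, 15% were higher in SFGL and 2.99% in FGL with that reference. Leaving out the bases after the start site lowered the members with an ISRE core from 19 to 15. Values under 1 FPKM rest on few reads, and the counts of members lowest in HB or higher in MES than in ESC and HB include such values.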
